A study of Mus musculus with 2 samples.

Results

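The 45 genes described here encode the proteins that license, fire and copy DNA replication origins in the mouse. They were taken by symbol from the table of 43346 annotated genes in each of 2 libraries, and each symbol matched 1 gene. By role they comprise 9 genes of origin licensing, 14 of the replicative helicase and its activation, 9 subunits of the replicative polymerases, 6 genes of the sliding clamp and its loader, 3 of the single-strand binding protein, 2 of flap removal and ligation, and 2 of chromatin assembly behind the fork. Whole liver of healthy B6NCrl mouse embryos at 13.5 days was the only tissue, age and genotype of the series. Embryos of both sexes were pooled, and the 2 replicates are labelled as biological, from distinct biosamples that share 1 donor entry. Spread between libraries is given as the SD over n = 2, and because nothing in the labels ties the replicates to separate litters, it may be partly technical. With 1 group there was no condition to test, so levels are compared between genes and between replicates as descriptions.

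In eukaryotic cells the origin recognition complex, with Cdc6 and Cdt1, loads the Mcm2-7 ring onto DNA before S phase, and geminin binds Cdt1 to stop a repeat of that step. The Dbf4-dependent kinase and Mcm10 then help Cdc45 and GINS turn the ring into an active helicase. Polymerase alpha with primase starts each strand, polymerases epsilon and delta extend it on the PCNA clamp, and Fen1 and Lig1 finish the lagging strand. At this stage the fetal liver is the main site of red cell production, and its erythroid precursors divide rapidly.

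The input per library was 10 ng of RNA above 200 nt, to which spike-ins were added. Annotated genes received 39182457 expected counts in replicate 1 and 37432977 in replicate 2, of which the 45 genes held 0.726% and 0.773%. Globins took 34.6% and 31.2% of the summed TPM, a transcript level scaled for length and depth. Most markers of the tissue were abundant, and 6 of 8 for hepatoblasts and 7 of 8 for erythroid cells reached 100 TPM. The highest of each list were Afp at 5630 and 6807 TPM and Alas2 at 905 and 878 TPM. The others were lower, with Hnf4a at 11.03 and 13.73 TPM and Foxa2 at 3.23 and 3.36 TPM for hepatoblasts. For erythroid cells Tal1 was at 26.35 and 28.14 TPM. Markers of heart muscle summed to 37.4 TPM in replicate 1 and 93.0 TPM in replicate 2, and all 7 were higher in replicate 2. In whole tissue, fewer cells of a type and less RNA per cell cannot be told apart.

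Promoter sequence was examined first, because genes of DNA synthesis are textbook targets of the E2F factors. RefSeq promoters on GRCm38.p6, from 250 bases before a transcription start to 50 bases after it, were present for 37 of the 45 genes in 46 entries. The genes not matched were Gmnn, Mcm4, Gins1, Gins2, Gins4, Prim2, Pole and Rfc2. The E2F letters searched on both strands were TTTCCCGC, TTTGGCGC, TTTCGCGC and TTTGCCGC. They occurred in 15 of the 37 genes, or 40.5%, against 2.61% of the 27025 genes of the table and 4.93% of its 8868 protein-coding genes at 1 TPM or more in both libraries. Counted by entry, the shares were 32.6% of 46 and 2.26% of 32851. A match is a description of the letters only.

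Genes with E2F letters came from 5 of the 7 roles. They were Orc1, Orc3, Cdc6 and Cdt1 in origin licensing, Mcm3, Mcm5, Mcm6, Mcm7 and Gins3 in the helicase, and Pola1, Pold1, Pold3 and Pole2 among the polymerases. Rfc3 and Lig1 completed the set, and no promoter of replication protein A or chromatin assembly held these letters. Of the 21 matches, 9 lay after the start and 5 within 100 bases before it. Mcm3, Mcm5, Mcm6, Mcm7 and Rfc3 held at least 2 matches each. The median level was 64.9 TPM over the 15 genes with the letters and 62.7 TPM over the 22 without, and their ranges overlapped, at 9.74 to 262 TPM and 17.9 to 346 TPM.

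The following stretches, written 5′ to 3′ on the strand of the gene, show matches that lie wholly before the annotated gene, with the E2F letters in capitals. Mcm6 (chr1:128359706-128359865, minus strand) was chosen for its 3 matches, and Mcm5 (chr8:75109349-75109508, plus strand) for an overlapping pair. Orc3 (chr4:34614945-34615102, minus strand) and Pola1 (chrX:93632156-93632315, minus strand) show the single match of a licensing gene and of a polymerase gene.
Mcm6: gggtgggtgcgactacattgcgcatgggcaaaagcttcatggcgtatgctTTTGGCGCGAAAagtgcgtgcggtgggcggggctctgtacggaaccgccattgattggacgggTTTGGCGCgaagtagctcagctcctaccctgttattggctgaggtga
Mcm5: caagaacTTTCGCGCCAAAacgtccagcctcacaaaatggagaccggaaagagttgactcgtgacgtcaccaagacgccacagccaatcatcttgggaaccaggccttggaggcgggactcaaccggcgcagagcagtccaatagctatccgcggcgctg
Orc3: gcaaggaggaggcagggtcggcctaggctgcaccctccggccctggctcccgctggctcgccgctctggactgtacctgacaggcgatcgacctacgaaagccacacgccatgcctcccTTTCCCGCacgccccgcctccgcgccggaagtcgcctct
Pola1: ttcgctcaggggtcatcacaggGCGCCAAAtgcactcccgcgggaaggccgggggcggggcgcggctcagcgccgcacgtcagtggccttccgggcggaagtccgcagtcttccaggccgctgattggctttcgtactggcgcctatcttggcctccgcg
In Mcm6 a forward match and a reverse match overlap in the first capital run, and the other forward match begins 47 bases before the RefSeq start. In Mcm5 the 2 matches share the middle of a single run. Of the 21 E2F matches in all, 4 overlapped another E2F match and 1 overlapped a match of another motif searched.

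Other promoter motifs separated the genes less. The CCAAT box (CCAAT) was in 59.5% of the 37 genes, 41.1% of all genes and 43.6% of expressed protein-coding genes. The SP1 box (GGGCGG) was in 78.4%, 38.2% and 69.2% of the same sets. The letters of the cell cycle homology region (TTTGAA or TTCGAA) were in 24.3%, 21.7% and 16.7%.

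**Figure D1:**
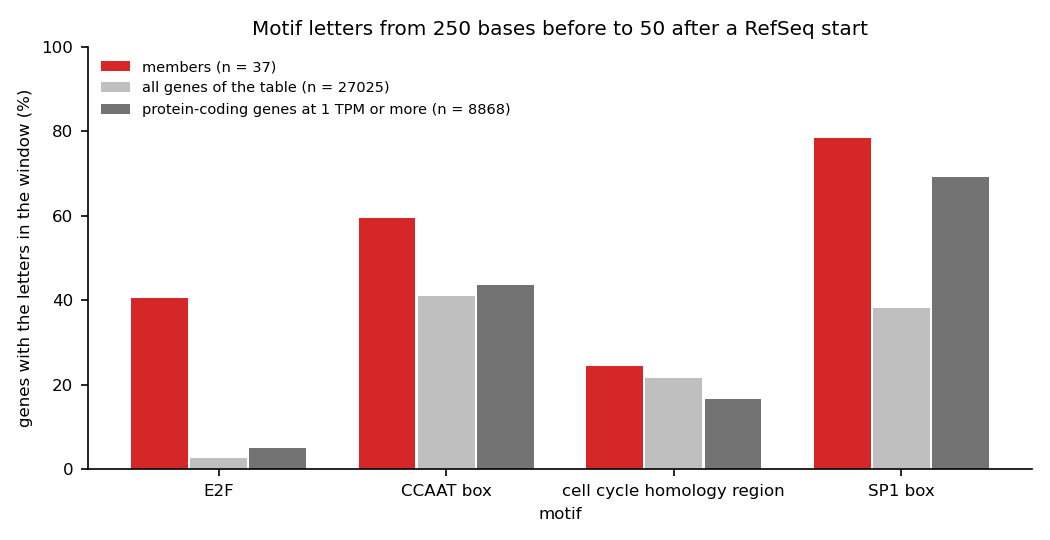
Share of genes (vertical axis, %) that hold each motif on either strand of a RefSeq promoter window, for the 37 replication genes (red), all 27025 genes (light grey) and 8868 expressed protein-coding genes (dark grey). The E2F bars stand at 40.5%, 2.61% and 4.93%, the widest relative gap of the 4 motifs plotted.

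Every one of the 45 genes reached 1 TPM in both libraries, as did 52.1% of the 21474 protein-coding genes. All but Gins3 reached 10 TPM in both, against 27.9% of protein-coding genes, and 14 reached 100 TPM in both, against 4.92%. Their median was 65.0 ± 3.24 TPM, beside 12.4 ± 1.03 TPM over the 11194 protein-coding genes at 1 TPM or more. The median gene stood at percentile 85.1 of those expressed genes, and the lowest, Gins3, at percentile 43.8. From Pcna to Gins3 the levels spanned 35.5-fold. Of the 990 pairs of genes, 963 had the same order in both libraries and 911 had library values that did not overlap. Between neighbours in the order of means, however, only 11 of 44 steps were free of overlap.

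**Figure D2:**
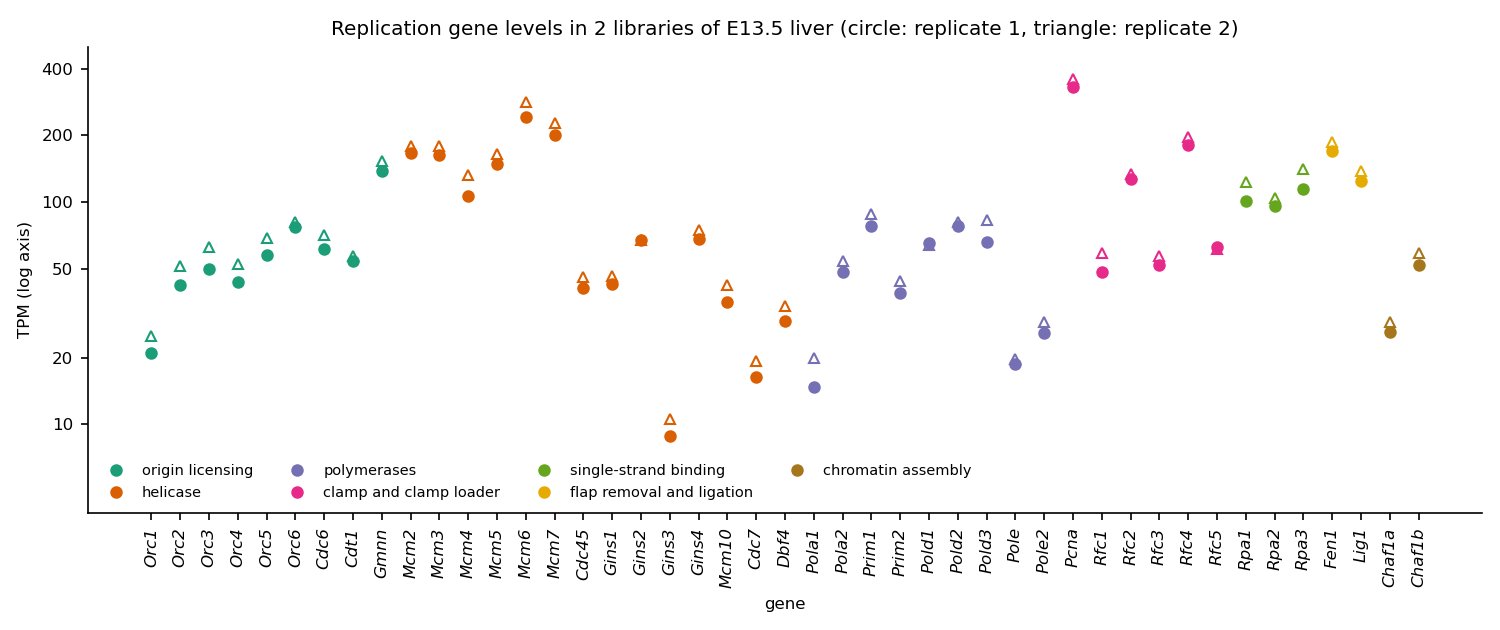
TPM (vertical log axis) of each of the 45 genes (horizontal axis, ordered and coloured by role) in replicate 1 (filled circle) and replicate 2 (open triangle). Pcna is highest at 332 and 360 TPM, the Mcm2-7 genes lie between 106 and 283 TPM, and Gins3 is lowest at 8.87 and 10.6 TPM.

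Among the licensing genes, Orc2 to Orc5 of the origin recognition complex lay between Orc1, its largest ATPase subunit, and Orc6. Orc1 was at 20.9 and 24.96 TPM and Orc6, the smallest subunit, at 77.6 and 81.2 TPM, so that Orc6 exceeded Orc1 by 3.48 ± 0.325-fold. Orc2 was at 42.5 and 51.8 TPM and Orc3 at 50.3 and 62.8 TPM. Orc4 was at 43.9 and 52.7 TPM and Orc5 at 57.8 and 68.8 TPM. Each of these 4 overlapped at least 1 other in its library values, whereas Orc1 and Orc6 did not overlap any other subunit. That order holds for all transcripts summed. Over transcripts with a consensus coding sequence Orc4 was at 10.6 and 11.1 TPM, below Orc1 at 18.7 and 23.5 TPM.

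The loading factors Cdc6 and Cdt1 lay within the range of the origin recognition complex. Cdc6, an ATPase that joins the complex on DNA, was at 61.8 and 71.2 TPM. Cdt1, which brings the Mcm2-7 ring, was at 54.4 and 57.4 TPM. Gmnn, which encodes geminin, the inhibitor of Cdt1, was at 138 and 153 TPM. It was the most abundant licensing transcript in both libraries and exceeded Cdt1 by 2.60 ± 0.0915-fold.

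The 6 genes of the Mcm2-7 ring, the motor of the helicase, were among the highest of the 45. Mcm6 (chromosome 1, 128331590 to 128359664) was at 242 and 283 TPM and Mcm7 at 200 and 227 TPM, and neither overlapped another Mcm2-7 gene. Mcm2 was at 166 and 179 TPM, Mcm3 at 164 and 179 TPM and Mcm5 at 149 and 165 TPM. Mcm4 was lowest at 106 and 132 TPM and overlapped no other. The ring's subunits thus lay within 2.21 ± 0.101-fold of each other, and Mcm2 and Mcm3 differed by less than the spread between libraries. That likeness holds for all transcripts summed: over transcripts with a consensus coding sequence Mcm2 exceeded Mcm3 by 1.49-fold and 1.47-fold. Their median, 172 ± 10.2 TPM, was 3.30 ± 0.281 times that of the origin recognition complex, 52.4 ± 7.56 TPM.

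The partners that complete the active helicase were lower than the ring. Cdc45, which bridges the ring and GINS, was at 41.1 and 45.9 TPM, and the median of the Mcm2-7 genes was 3.96 ± 0.0676 times that level. Of the 4 GINS subunits, which form a tetramer with 1 copy of each, Gins4 was at 68.1 and 75.3 TPM, Gins2 at 67.9 and 67.3 TPM and Gins1 at 42.9 and 46.4 TPM. Gins3 (chromosome 8, 95633453 to 95645060) was at only 8.87 and 10.6 TPM, on 777 and 834 expected counts. With all transcripts summed it lay below every other gene of the 45 in both libraries. Over transcripts with a consensus coding sequence Pole was lower, at 4.34 and 4.91 TPM. Gins4 exceeded Gins3 by 7.39 ± 0.404-fold. That was the widest range of the 10 complexes compared, over their subunits among the 45, when all transcripts were summed. Pold4 of polymerase delta and Rbbp4 of CAF-1 are outside the 45 and were not counted in that comparison.

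The activators of the helicase each had a mean below that of Cdc45. Mcm10, which acts during origin firing, was at 35.7 and 42.4 TPM. Cdc7, the catalytic subunit of the Dbf4-dependent kinase, was at 16.4 and 19.3 TPM, and its regulatory partner Dbf4 was at 29.2 and 34.0 TPM. Dbf4 exceeded Cdc7 by 1.77 ± 0.0172-fold.

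The polymerases had the second lowest class median, 51.5 ± 4.38 TPM over 9 genes. Within polymerase alpha-primase, which lays down the RNA-DNA primer, the catalytic subunit was the scarce one. Pola1 (chromosome X, 93304767 to 93632155) was at 14.7 and 19.9 TPM, Pola2 at 48.4 and 54.6 TPM, Prim2 at 38.9 and 44.3 TPM and Prim1, the primase catalytic subunit, at 78.3 and 88.6 TPM. Prim1 therefore exceeded Pola1 by 4.88 ± 0.616-fold, and the range of the complex was 3.12-fold with counts per kb of the longest transcript.

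Polymerase delta, which copies the lagging strand, was more even. Its catalytic subunit Pold1 was at 65.5 and 64.3 TPM, Pold2 at 78.4 and 81.7 TPM and Pold3 at 66.2 and 83.6 TPM, a range of 1.248 ± 0.0726-fold with overlap between Pold3 and Pold2. Polymerase epsilon, the leading strand enzyme, was lower. Pole (chromosome 5, 110286306 to 110337474), its catalytic subunit, was at 18.7 and 19.6 TPM and Pole2 at 25.7 and 28.9 TPM. Pold1 exceeded Pole by 3.39 ± 0.160-fold over all transcripts, and by 7.95-fold and 7.20-fold in replicates 1 and 2 over transcripts with a consensus coding sequence. Neither Pole nor Pole2 overlapped Pold1, Pold2 or Pold3.

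Pcna, the sliding clamp (ENSMUSG00000027342.10, chromosome 2, 132249162 to 132253314), was at 332 and 360 TPM on 17350 and 16918 expected counts. It was the highest of the 45 in both libraries and did not overlap Mcm6, the next. Its processed pseudogene Pcna-ps2 was listed at 2.58 and 3.73 TPM, and how many reads the authors' model divided between the copies is not known. The clamp loader, which opens the ring of PCNA at primers, was uneven. Rfc4 was at 180 and 196 TPM and Rfc2 at 128 and 135 TPM. Rfc5 was at 62.7 and 61.4 TPM, Rfc3 at 52.3 and 57.2 TPM and Rfc1, the large subunit, at 48.8 and 59.4 TPM. These last 3 were all below Rfc2 and Rfc4 in both libraries, and the complex spanned 3.57 ± 0.189-fold, or 6.61-fold with counts per kb.

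Replication protein A, the heterotrimer that coats single-stranded DNA, had a high class median. Rpa1 was at 101 and 123 TPM, Rpa2 at 96.3 and 105 TPM and Rpa3 at 114 and 141 TPM, a range of 1.27 ± 0.115-fold that became 2.20-fold with counts per kb of the longest transcript. Rpa1 overlapped both others, while Rpa2 and Rpa3 did not overlap. Fen1, the flap nuclease of Okazaki fragments, was at 171 and 186 TPM, and Lig1, the ligase that seals them, at 124 and 138 TPM. Fen1 exceeded Lig1 by 1.36 ± 0.0148-fold. That ratio is of all transcripts summed, and the 3091 nt coding transcript of Lig1 was at only 18.1 and 22.75 TPM. The CAF-1 subunits, which place histones H3 and H4 on new DNA, were lower, with Chaf1a at 26 and 28.8 TPM and Chaf1b at 52.3 and 58.9 TPM. Their range, 2.03 ± 0.0204-fold, was 1.31-fold with counts per kb.

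Set side by side, the classes ran from flap removal and ligation, at a median of 155 ± 10.2 TPM, through replication protein A at 112 ± 15.0 TPM and the clamp and its loader at 96.6 ± 2.03 TPM. The helicase class followed at 69.6 ± 2.32 TPM, origin licensing at 58.6 ± 5.95 TPM, the polymerases at 51.5 ± 4.38 TPM and chromatin assembly at 41.5 ± 3.31 TPM. The library medians of neighbouring classes overlapped only between origin licensing and the polymerases. Spread within a class varied: the helicase class ran from Gins3 to Mcm6 and the clamp class from Rfc1 to Pcna, whereas replication protein A spanned 1.27-fold and CAF-1 2.03-fold. The pairs of genes and complexes given as fold differences above were chosen after their values were seen.

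Transcript-level estimates showed where a gene's TPM was not that of its full-length message. The leading transcript, the one with most of a gene's TPM, was the same in both libraries for all 45 genes, and it held at least 80% of the TPM in 28. It was annotated as protein-coding in 42, and 9 genes had only 1 transcript in the files, among them Mcm2, Mcm4, Mcm5, Cdt1 and Chaf1a. In 7 genes, retained-intron transcripts held at least 20% of the TPM. These were Gins2, Pold1, Mcm10, Mcm3, Rpa1, Pold2 and Rfc4. Such isoform counts were not taken over all expressed genes, so they are not read as particular to the 45. In Mcm3 the 716 nt retained-intron transcript Mcm3-203 held 29.7 ± 1.19% of the TPM but 8.37 ± 0.319% of the counts, since a short transcript needs few reads for a given TPM.

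In 5 genes the leading transcript by TPM was not the leading one by counts. For Gins2 the 511 nt retained-intron transcript Gins2-204 held 70.9 ± 0.190% of the TPM, and the 3900 nt coding transcript Gins2-201 held 20.4 ± 2.03% of the TPM but 68.6 ± 1.92% of the counts. Pole was led by Pole-203, a 747 nt coding fragment, at 44.3 ± 1.17% of the TPM, while the full-length 7163 nt Pole-201 held 24.1 ± 1.29% of the TPM and 64.7 ± 1.27% of the counts. Lig1 was led by the 944 nt Lig1-206 at 51.5 ± 6.68% of the TPM, and its 3091 nt Lig1-201 held 15.5 ± 1.39% of the TPM and 33.1 ± 2.40% of the counts.

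Orc4 and Rfc1 were the other such genes. Orc4 was led by Orc4-212, a processed transcript of 1477 nt with 33.4 ± 3.65% of the TPM, and processed transcripts together held 68.6% of its TPM. The 4066 nt coding Orc4-201 held 13.5 ± 0.685% of the TPM and 40.8 ± 1.96% of the counts. For Rfc1 a 485 nt transcript with no entry in the annotation release used for names held 42.9 ± 6.85% of the TPM, and its 4751 nt transcript, also without an entry, held 17.1 ± 0.546% of the TPM and 43.1 ± 0.971% of the counts.

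**Figure D3:**
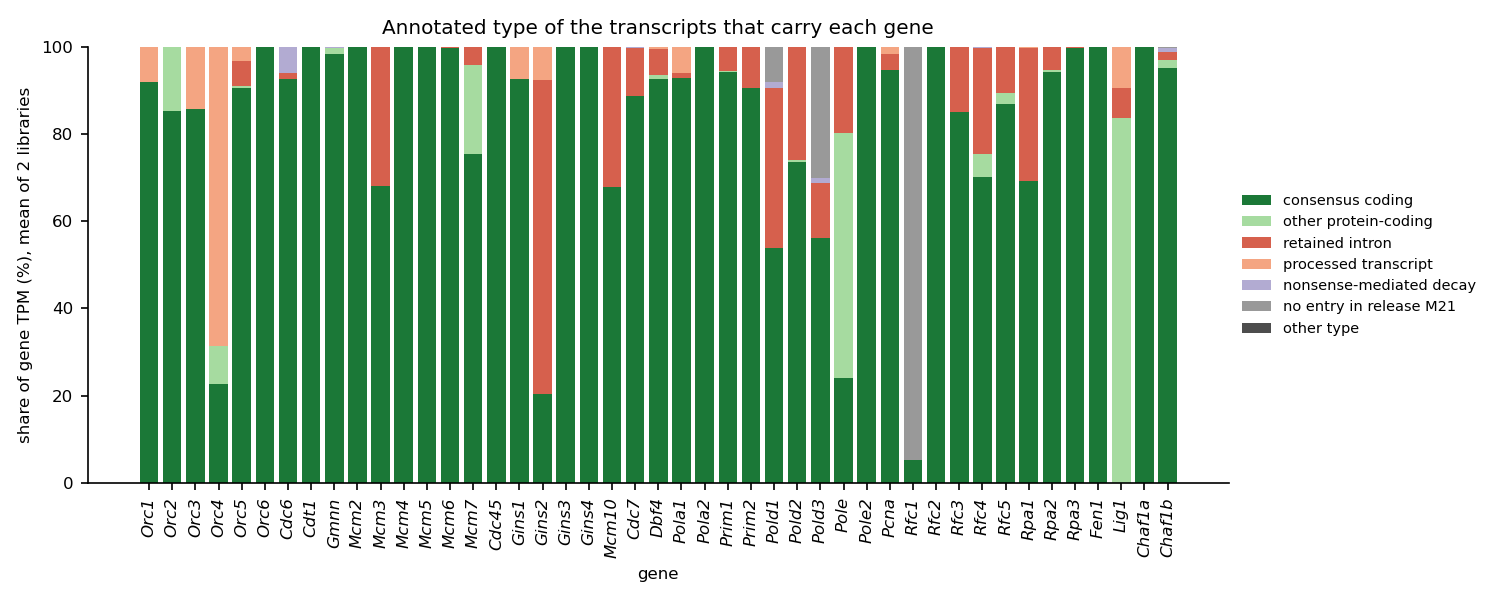
Share of each gene's TPM (vertical axis, %, mean of 2 libraries) in transcripts of each annotated type, for the 45 genes in order of role. Consensus coding transcripts fill at least 80% of the bar in 32 genes and under 50% in Orc4, Gins2, Pole, Rfc1 and Lig1.

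Levels were therefore also taken over transcripts with a consensus coding sequence alone, a choice made after the data were seen, for 43 genes without Lig1 and Rfc1. Pole then fell to 4.34 and 4.91 TPM, Orc4 to 10.6 and 11.1 TPM and Gins2 to 12.9 and 14.7 TPM, the largest relative shifts of the subunits plotted. The range within polymerase epsilon widened from 1.42 ± 0.0712-fold to 5.91 ± 0.0193-fold, and that within the origin recognition complex from 3.48 ± 0.325-fold to 7.31 ± 0.0270-fold, with Orc4 in place of Orc1 as the lowest subunit. Pold1 moved to 34.5 and 35.4 TPM. The range of the Mcm2-7 ring was 2.29 ± 0.0259-fold against 2.21 ± 0.101-fold, but its order was not kept. Mcm3 moved to 111 and 122 TPM, where Mcm4 overlapped it, and Mcm7 moved to 153 and 168 TPM, where it overlapped Mcm2 and Mcm5. Gins3 kept its level because it has 1 transcript, and Pole lay below it in this measure. In this measure the polymerases, at 37.7 ± 3.90 TPM, became the lowest class, though within the spread of chromatin assembly at 40.2 ± 3.05 TPM.

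**Figure D4:**
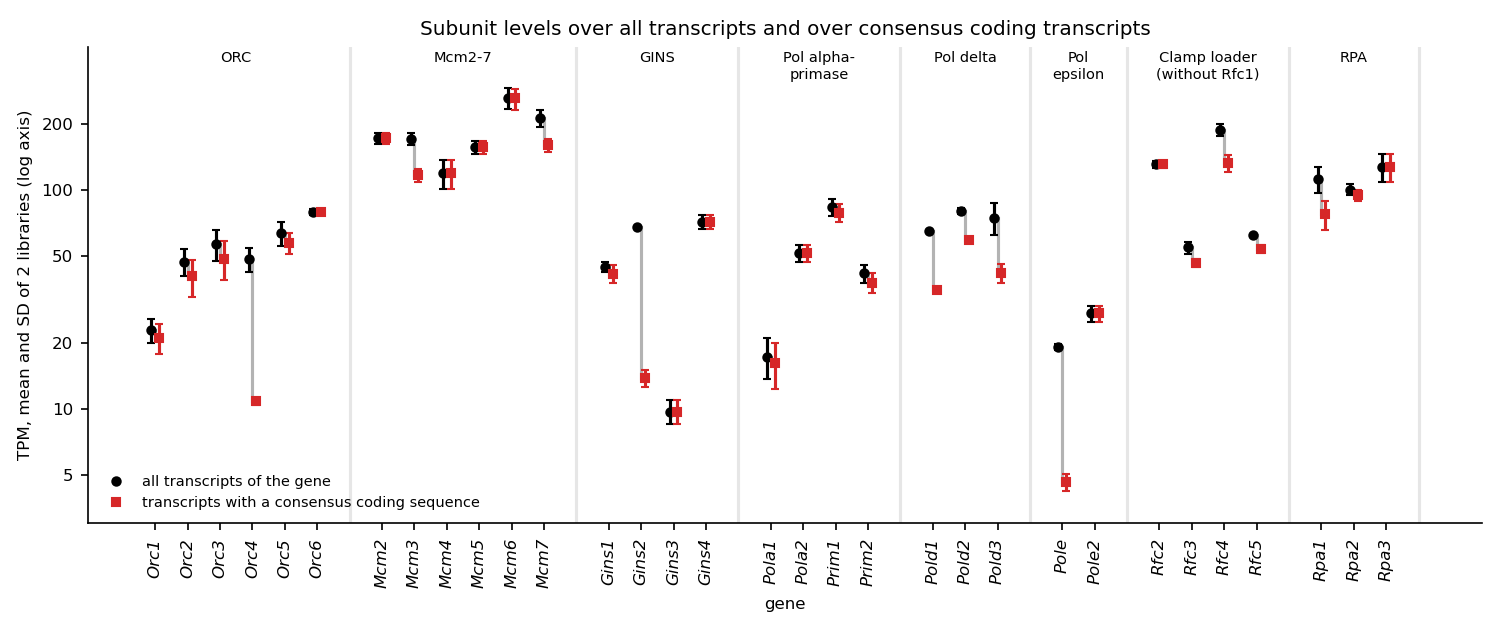
Mean TPM and SD of 2 libraries (vertical log axis) for the subunits of 8 complexes, over all transcripts (black circle) and over transcripts with a consensus coding sequence (red square), joined by a grey line. Orc4, Gins2 and Pole drop from 48.3, 67.6 and 19.2 TPM to 10.9, 13.8 and 4.63 TPM, while the Mcm2-7 subunits stay above 100 TPM on either measure.

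Between replicates the 45 genes were close. After TMM scaling, which sets the bulk of genes to no change, the median log2 ratio of replicate 2 over replicate 1 was 0.02 over the 45 genes and -0.00 over all 15997 genes whose counts averaged 10 or more. Of the 45, 26 were higher and 19 lower in replicate 2, while 49.7% of all genes were higher. None of the 45 passed a log2 ratio of 0.32 in either direction, a limit that 9.41% of all genes passed upward and 11.6% downward. Many of those genes had lower counts than any of the 45, and the share was not taken at like counts. The median size of the log2 ratio was 0.06, against 0.15 over all genes and 0.11 over the 6658 genes at or above the lowest count of the 45. Exact 95% counting intervals, which cover counting error only, lay above 0 for 14 genes and below 0 for 8. Of those 6658 genes, 32.8% lay above 0 and 28.3% below.

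Pola1, the catalytic subunit of the primer-making polymerase, differed most. Its 2722 and 3397 expected counts gave a log2 ratio of 0.319, with a counting interval of 0.25 to 0.39, just inside the limit of 0.322. Rfc1 followed at 0.24 and Orc2 at 0.21. Among the lower genes, Pold1 was at -0.14 and Pold2 at -0.11. The origin recognition complex was higher in replicate 2 for 5 of its 6 genes, with Orc6 the exception at -0.09, and the clamp class was higher for 2 of 6. Markers of other cell types also differed between replicates. In replicate 2 all 7 heart markers and all 6 endothelial markers were higher, with median log2 ratios of 2.48 and 0.24. Of the megakaryocyte, granulocyte and monocyte, and skeletal muscle markers, 0 of 5, 1 of 6 and 0 of 5 were higher, with medians of -0.29, -0.30 and -0.80. Their part in the ratios of the 45 genes was not tested.

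The scaling set the overall level of these ratios. With spike-in scaling, under which spike-ins took 1.16% and 1.88% of counts, the median of all genes moved to -0.64 and that of the 45 to -0.62, and every gene but Pola1, 44 in all, passed the limit downward. On the TPM scale the medians were 0.14 and 0.17, 42 of the 45 were higher in replicate 2, and Pola1 and Pold3 passed the limit upward. The shares of all genes that were higher or past the limit were not taken with spike-ins or TPM. A scaling factor moves the ratios of all genes alike, so the median of the 45 stood 0.02 above that of all genes under each factor.

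**Figure D5:**
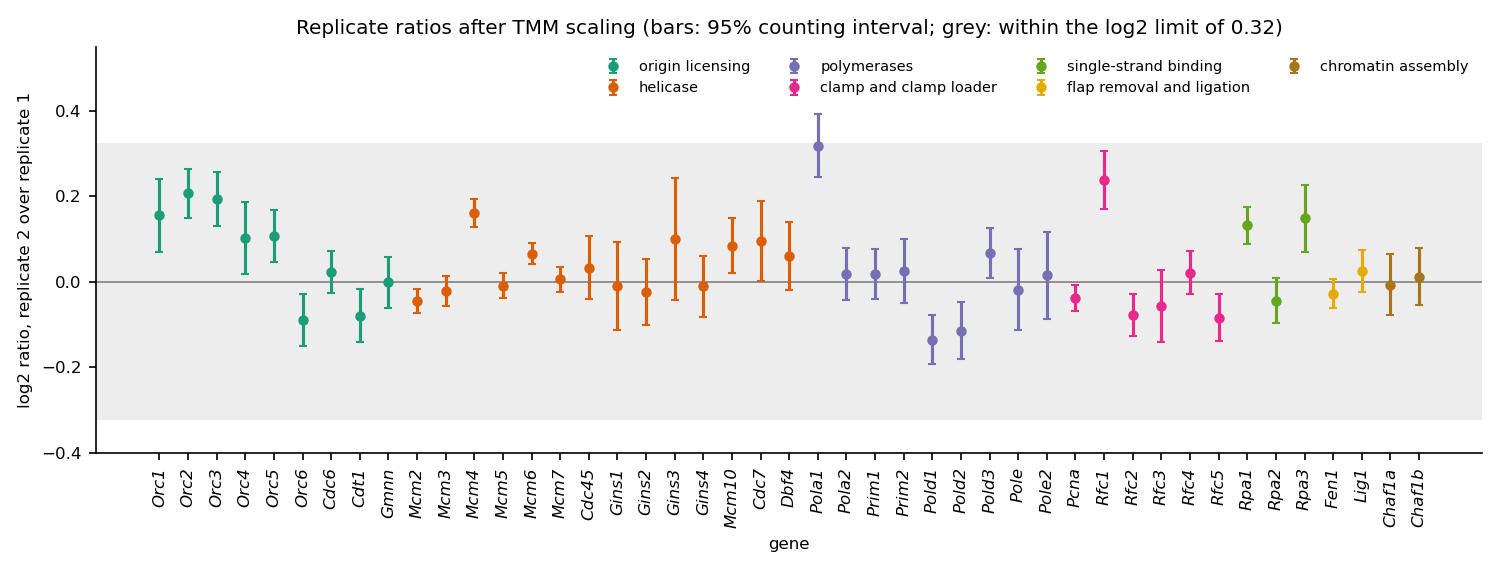
Log2 ratio of replicate 2 over replicate 1 after TMM scaling (vertical axis) for each of the 45 genes, coloured by role, with exact 95% counting intervals as bars and the band within a log2 ratio of 0.32 in grey. All points lie within the band, from Pold1 at -0.14 to Pola1 at 0.319.

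A wider list of 68 replication genes outside the 45 was lower. Each of the 68 reached 1 TPM in both libraries, 46 reached 10 TPM and 8 reached 100 TPM. Of protein-coding genes, 52.1%, 27.9% and 4.92% reached these levels. The median of the 68 was 18.6 ± 0.626 TPM. Among remaining subunits of the same complexes, the histone chaperone Rbbp4, shared by CAF-1 and other complexes, was at 259 and 302 TPM, and the polymerase epsilon subunits Pole3 and Pole4 were at 69.5 and 72.5 TPM and at 58.3 and 66.4 TPM. Both were thus above Pole and Pole2 in each library. Pold4, the small subunit of polymerase delta, was at 9.47 and 6.82 TPM, below Pold1, Pold2 and Pold3. These remaining subunits were left out of the complex ranges above, and each lay outside the levels of the subunits counted there. Pold4 was the only 1 of the 68 to pass the limit of 0.32 downward between replicates, at a log2 ratio of -0.63 on 291 and 188 expected counts. Rbl2, a pocket protein, and Polk, a translesion polymerase, passed it upward at 0.43 and 0.42. These 3 were named after their values were seen. Of all genes whose counts averaged 10 or more, 11.6% passed the limit downward and 9.41% upward.

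Other steps of the fork were also represented. The firing factors were led by Topbp1 at 40.7 and 47.8 TPM, and the list median was 16.0 ± 2.08 TPM. Of the fork protection genes, Tipin was at 213 and 230 TPM, Clspn at 47.7 and 43.1 TPM and Wdhd1 at 33.9 and 39.9 TPM. The ribonuclease H2 subunits, which remove ribonucleotides from DNA, were at 131 and 141 TPM for Rnaseh2c, 116 and 115 TPM for Rnaseh2a and 58.7 and 80.1 TPM for Rnaseh2b. Top2a, which untangles replicated DNA, was at 189 and 222 TPM. Subunits of the alternative clamp loader of sister chromatid cohesion were modest. Chtf8 was at 34.6 and 45.6 TPM, Dscc1 at 30.9 and 34.7 TPM and Chtf18 at 22.6 and 23.1 TPM.

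The E2F family and its partners were measured as well. E2f4, an E2F usually linked to repression with pocket proteins, was at 159 and 198 TPM, and the dimer partners Tfdp1 and Tfdp2 were at 115 and 131 TPM and at 77.0 and 98.1 TPM. In that list all 13 genes reached 1 TPM in each library, and the median was 18.7 ± 1.48 TPM. In Cdt1 turnover, Ddb1 and Cul4a of the ubiquitin ligase that marks Cdt1 for degradation were at 125 and 150 TPM and at 67.2 and 81.9 TPM.

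Polymerases and ligases of repair were mostly low. Polb, the base excision repair polymerase, was at 25.2 and 31.3 TPM, above Pola1 and Pole in both libraries. Polg of the mitochondria was at 11.8 and 13.4 TPM. Lig3 was at 9.15 and 10.7 TPM, beside 124 and 138 TPM for Lig1 over all transcripts, most of it in short ones. The 7 translesion genes had a median of 9.77 ± 1.22 TPM and were led by Mad2l2 at 18.8 and 17.4 TPM. Within the wider Mcm family, Mcmbp was at 24.4 and 27.3 TPM, Mcm8 at 8.08 and 10.2 TPM and Mcm9 at 1.65 and 1.85 TPM, all below every Mcm2-7 gene. The S phase checkpoint list, led by Chek1 at 23.1 and 27.5 TPM, had a median of 14.4 ± 1.87 TPM.

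Several of the 45 genes share their start region with another gene. A protein-coding neighbour began head to head within 1000 nt in 13 of 45, or 28.9%, against 17.1% of expressed protein-coding genes and 10.9% of all protein-coding genes. Levels of such pairs often differed. Mcm4 and Prkdc, a DNA repair kinase, start 466 nt apart, and Prkdc was at 3.77 and 4.53 TPM beside 106 and 132 TPM for Mcm4. Rpa1 and Smyd4 start 109 nt apart, with Smyd4 at 4.63 and 5.88 TPM. In contrast, Cdc45 and Ufd1, which start 208 nt apart, were level, with Ufd1 at 36.9 and 44.6 TPM. Orc3 and Rars2 start 13 nt apart, with Rars2 at 36.9 and 43.8 TPM, and Fen1 was below its neighbour Tmem258 at 339 and 298 TPM. Exons of Cdc45 and Ufd1 overlap by 209 nt and those of Fen1 and Tmem258 by 130 nt, so reads there may be shared.

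Overlap with genes of the opposite strand limits some of these values. By release M21, exons of 14 of the 45 genes overlapped a gene on the other strand, and the share over all genes was not taken. The sources used here do not say whether counting used strand, so reads in the overlaps cannot be told apart. Overlap lengths are those of M21 and may exceed those in the release used for counting. The longest overlap was that of Chaf1a with Ubxn6, at 4648 nt, with Ubxn6 at 14.4 and 15.9 TPM. Gins2 overlapped Gse1 by 2758 nt, with Gse1 at 5.10 and 5.32 TPM. Fen1 overlapped Gm10143 by 1909 nt, with Gm10143 at 5.45 and 5.52 TPM. Orc2 overlapped Nif3l1 by 1150 nt, with Nif3l1 at 19.1 and 19.3 TPM. Mcm7 overlapped the abundant Cops6 by 64 nt, with Cops6 at 161 and 160 TPM. Orc6 overlapped Vps35 by 171 nt, with Vps35 at 107 and 135 TPM. Rfc4 overlapped Eif4a2 by 194 nt, with Eif4a2 at 67.5 and 84.6 TPM.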

How the data were processed

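Total RNA of E13.5 mouse liver was sequenced in 2 libraries of 1 group. The deposited readme names mm10 and GENCODE release M4 for each library's tables. The sources used here do not give the aligner, the counting tool or the use of strand. The authors' expected counts are estimated counts, which need not be whole because a model shares out ambiguous reads, per the file headers. TPM was normalised by the authors per length to a fixed sum over all entries, spike-ins included. Posterior SDs of counts and TPM bounds, a signal with no stated level, were deposited beside them. The percent of a gene in each transcript was deposited and was recomputed here from TPM.

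Symbols, transcript types, consensus coding marks and coordinates came from GENCODE release M21 on GRCm38, and promoters from RefSeq on GRCm38.p6. Levels are the mean and SD of 2 libraries (n = 2), with no test. Replicate ratios are log2 of expected count plus 0.5 for genes whose counts averaged 10 or more. TMM factors came from rounded counts in edgeR 4.0.16 and size factors from DESeq2 1.42.0, in R 4.3.3. Intervals of a ratio are exact 95% binomial intervals (Python 3.11.15, scipy 1.17.1) and cover counting error only, and the ratio step was tested on simulated data. Precision follows depth, with 777 to 27190 counts per gene here. The deposited posterior SD was at most 0.401% of a count in replicate 1, the only library for which it was taken. A head-to-head neighbour starts on the opposite strand within 1000 nt.

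The genes and lists were chosen with earlier results of these data known. Named genes are all 45, and a selection from the 3 highest of the other lists and from neighbours that start head to head or overlap exons. Not every gene of those lists and neighbours that met the rule is named. Pcna-ps2, Hnf4a, Foxa2 and Tal1 fall outside the rule, and others are marked as chosen later. Alternatives covered scaling, count minimum, the added value, length correction, globin removal, the promoter window and each library alone. A planned search of protein sequences was not run. Cell marker lists not printed above had summed levels of 3084 and 3370 TPM (erythroid), 14215 and 15980 TPM (hepatoblast), 236 and 246 TPM (macrophage), 1046 and 980 TPM (granulocyte and monocyte), 784 and 723 TPM (megakaryocyte), 58.0 and 74.4 TPM (endothelial), 245 and 257 TPM (mesenchymal) and 66.4 and 51.4 TPM (skeletal muscle) in replicates 1 and 2.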

Additional observations from a re-analysis of the deposited data

How the results depend on the processing

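The order of the 7 class medians was the same with posterior mean TPM and with counts per kb of the longest transcript. TPM was also rescaled over protein-coding genes other than globins. That multiplies all genes of a library alike, so it cannot change the order within a library and does not test it. Rescaling without globins raised all medians by its construction, to 101 (licensing), 120 (helicase), 88.6 (polymerases), 166 (clamp), 193 (replication protein A), 267 (flap removal and ligation) and 71.5 TPM (chromatin assembly). Counts per kb gave 73.3 for the helicase and 113 for the clamp class, and a median on the log2 scale gave 90.3 TPM for the clamp class. Over consensus coding transcripts, a choice made after seeing the data, the medians were 129 (clamp), 94.7 (replication protein A), 57.6 (helicase) and 37.7 TPM (polymerases), the first without Rfc1. In that measure the clamp class was highest and the polymerases lowest, with flap removal and ligation not compared because Lig1 was left out. The cause of the other shifts was not tested.

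Ranges within complexes moved with the length correction and with the choice of transcripts. With counts per kb the highest subunit exceeded the lowest by 4.78-fold (origin recognition complex), 1.62-fold (Mcm2-7), 3.12-fold (polymerase alpha-primase), 1.55-fold (delta), 3.64-fold (epsilon), 6.61-fold (clamp loader), 2.20-fold (replication protein A), 1.31-fold (CAF-1) and 2.00-fold (Dbf4-dependent kinase). Over consensus coding transcripts it was 7.31-fold, 1.69-fold (delta), 5.91-fold (epsilon), 1.64-fold (replication protein A), 1.93-fold (CAF-1) and 1.85-fold (Dbf4-dependent kinase), the first for the origin recognition complex. The median replicate ratio was -0.62 with spike-ins and 0.17 on the TPM scale. With spike-ins, total counts and TPM, 44, 1 and 2 genes passed the log2 limit of 0.32, against 0 with TMM. The median of all genes was -0.64, 0.07 and 0.14 on those scales. The share of all genes past the limit was taken for TMM only. No paired analysis was possible because the 2 libraries form 1 group. A narrower window ran from 100 bases before the start to 50 after it. There the E2F letters were in 32.4% of the 37 genes, 1.45% of all genes and 2.70% of expressed protein-coding genes. The CCAAT box was in 48.6%, 26.3% and 30.1% of the same sets, and the SP1 box in 67.6%, 31.5% and 59.8%. The cell cycle homology region was in 13.5%, 9.87% and 6.90%. Leaving out 1 of 2 libraries returns the other's value and tests nothing here, and with 2 libraries the SD itself is poorly known.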
